A study of Mus musculus with 24 samples.

Results

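Leukocytes of the early pancreatic infiltrate of BDC2.5 NOD mice were compared with leukocytes of the NOD spleen on 5 of the 24 mouse expression arrays of a study of aggressive and benign insulitis in the BDC2.5 model of type I diabetes. The 5 arrays were chosen by their titles, as the 3 arrays of the total infiltrate and the 2 arrays of splenic leukocytes on the NOD background. The infiltrate came from the pancreas of BDC2.5 NOD mice 25 days old, which carried a benign insulitis, and no treatment was given in the labels. The spleen leukocytes came from NOD mice whose age is not stated and for which no transgene is named, and the labels give them as the reference for the infiltrate. Both were sorted by flow cytometry as viable CD45+ Hoechst- cells, and RNA was extracted with Trizol. The infiltrate RNA was amplified in 2 rounds and the spleen RNA in 1 round. The labels also print a serial code for each of these arrays, and no run of neighbouring codes holds arrays of both groups. Tissue, BDC2.5 transgene, rounds of amplification and serial-code run thus differ together between the groups and cannot be told apart in this comparison. Whether the 3 and the 2 arrays stand for different mice or pools is not stated in the labels. The p-values rest on the spread between arrays of 1 group, pooled over all 10 groups of the 24 arrays. That spread may be technical, and for a given gene it can differ from the spread of these 5 arrays.

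The NOD mouse develops autoimmune diabetes spontaneously, through a leukocyte infiltrate that gathers around and then within the islets of Langerhans. BDC2.5 is a T cell receptor taken from a diabetogenic CD4+ T cell clone that recognises an islet beta cell antigen, and mice that carry it as a transgene develop insulitis early and in step. Macrophages, dendritic cells, B cells, T cells and natural killer (NK) cells are all found in such infiltrates, whereas the spleen is a lymphoid organ rich in B cells and naive T cells. The series also holds B6g7 arrays, from the C57Bl/6 background with the H2g7 haplotype: 3 of the BDC2.5 infiltrate, from mice 24, 25 and 28 days old with an aggressive insulitis, and 2 of spleen leukocytes of no stated age or transgene, with the same sort and the same difference in amplification. A further 8 NOD arrays were amplified in 2 rounds like the infiltrate: 3 of sorted BDC2.5 T cells from the pancreas at 24 or 25 days, 3 of such T cells from the pancreatic lymph nodes at 22 to 25 days, and 2 of splenic NK cells, of which 1 came from a BDC2.5 mouse.

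Array medians over the whole series lay between 35.1 and 39.1 intensity units. Pairs of infiltrate arrays correlated at 0.958 to 0.979 and the spleen arrays at 0.992 across probe sets, whose values are not independent. The control probe sets along Gapdh differed between the 3′ and 5′ ends of the transcript by 3.09 to 3.64 log2 units on the infiltrate arrays and by 0.214 to 0.219 on the spleen arrays. On the 8 other NOD arrays amplified in 2 rounds this 3′ to 5′ difference of Gapdh was 2.78 to 4.99, as the plot of the control probe sets shows. For Actb the difference was 1.91 to 2.73 on the infiltrate arrays and 0.626 to 0.789 on the spleen arrays. The part of this 3′ loading in any single difference below was not tested. Of 368 genes with several probe sets of which at least 1 passed the test, 26 passed on every probe set in the same direction and 5 passed in opposite directions. These, named after their values were seen, were Ap1g1, Hspa4, Sec62, Evl (-1.73 and 1.21) and Gtf2i (-1.26 and 1.27).

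**Figure D1:**
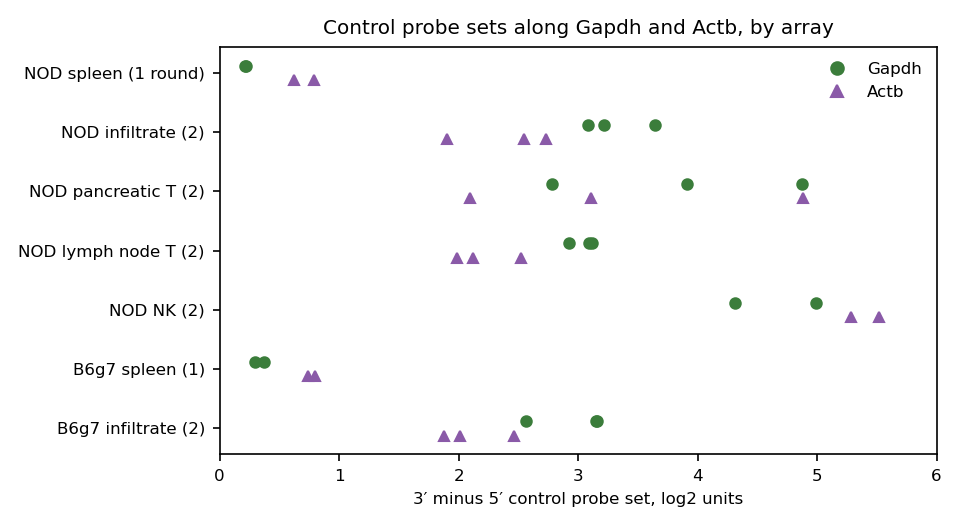
Difference between the 3′ and 5′ control probe sets of Gapdh (circles) and Actb (triangles), in log2 units, for each array of 7 groups, with the rounds of amplification in brackets. The NOD spleen arrays lie at 0.214 to 0.219 for Gapdh, and the NOD infiltrate arrays at 3.09 to 3.64, within the range of the other NOD arrays amplified in 2 rounds.

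Of 12422 probe sets tested, 1133 (9.12%) differed between infiltrate and spleen at an adjusted p under 0.05 (limma, Benjamini-Hochberg): 480 (3.86%) were higher in the infiltrate and 653 (5.26%) lower. With 1 probe set for each of 8251 genes, 715 passed (8.67%), of which 329 (3.99%) rose and 386 (4.68%) fell, and the median difference over all genes was 0.04 log2 units. Of the 8251 genes 4506 lay above 0. The counts of list members below are to be read beside these shares. At least 1 log2 unit separated the groups for 198 of the genes that rose (2.4% of all genes) and 213 of those that fell (2.58%). The count rested on both spleen arrays: 351 probe sets passed without spleen array 1 and 453 without spleen array 2. Without infiltrate array 1, 2 or 3 it was 759, 879 and 808. A fit that treats runs of neighbouring serial codes, which the labels print for most arrays, as a random block called 372 probe sets, 83 higher and 289 lower, and 13 of the 20 largest rises and all 20 of the largest falls named below passed in it. No run holds both infiltrate and spleen arrays, so that fit does not separate run from group. Levels are given as log2 intensity. Transcripts of tissues absent from both sorts lay at or below 7.06 for 90% of their values, and where the lower group sat at or under that level the fold is given as a bound against it.

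Among the gene lists, macrophage and monocyte genes had the highest median difference. Of 26 measured, 9 rose, 1 fell and 22 were above 0, with a median difference of 1.14 log2 units beside 0.04 over all genes. Over all genes 3.99% rose, 4.68% fell and 4506 of 8251 were above 0. All 3 infiltrate arrays lay above both spleen arrays for 16 of the 26, where 25.9% of all genes did so. The summed intensity of the 26 genes was 11717, 7044 and 7545 on the 3 infiltrate arrays and 3846 and 3509 on the spleen arrays. In bulk samples such as these, fewer cells of a type and less RNA per cell cannot be told apart. Mpeg1, which encodes the pore-forming protein perforin-2 of macrophages, measured 10.54, 9.68 and 10.14 in the infiltrate and 7.45 and 7.49 in the spleen. Every infiltrate array lay above both spleen arrays, and the rise was 2.65 log2 units (SE 0.34, adjusted p 5.1e-05), or 6.26-fold. Cd14, the co-receptor for bacterial lipopolysaccharide, measured 9.996, 9.08 and 8.99 in the infiltrate and 6.88 and 7.05 in the spleen, again without overlap. It rose by 2.39 (SE 0.42, adjusted p 0.00129), at least 4.92-fold. Csf1r, the receptor through which colony-stimulating factors sustain macrophages, measured 9.32, 7.85 and 8.86 against 6.66 and 6.71. It rose by 1.996 (SE 0.44, adjusted p 0.00821), at least 3.07-fold, though without spleen array 1 or 2 its adjusted p was 0.0916 and 0.0691. The scavenger receptor Msr1 lay at 7.37, 6.20 and 5.79 in the infiltrate against 3.97 and 3.90 in the spleen and rose by 2.52 (SE 0.34, adjusted p 0.000121). Both group means lay under the level of absent transcripts, so no fold is given. Adgre1, which encodes the F4/80 antigen, rose by 2.03 (SE 0.36, adjusted p 0.00138), with infiltrate arrays at 8.25, 7.26 and 6.49 and spleen arrays at 5.25 and 5.35. It did not pass in the serial-code fit (adjusted p 0.06).

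The other macrophage genes that rose were Lpl (2.26), the lipase that releases fatty acids from lipoproteins, Cd68 (1.42), a lysosomal glycoprotein, Fcgr1 (1.22), the high-affinity IgG receptor, and Ccr2 (0.98), the receptor that draws monocytes into tissue. Fcgr2b, the inhibitory IgG receptor that B cells also carry, fell by 1.72 (adjusted p 0.00277). The infiltrate arrays did not agree among themselves on some of the rest. Apoe, the lipid carrier of tissue macrophages, measured 10.17 and 9.69 on infiltrate arrays 1 and 2 but 7.09 on array 3, beside 6.95 and 6.74 in the spleen, and did not pass (2.13, SE 1.92, adjusted p 0.582). The complement gene C1qa measured 9.13, 7.89 and 6.11 in the infiltrate and 7.15 and 6.41 in the spleen, so that its groups overlapped (0.93, adjusted p 0.402). Fn1, encoding fibronectin, lay higher on all 3 infiltrate arrays but missed the threshold (2.34, SE 0.80, adjusted p 0.0791), and Lyz2, encoding lysozyme, stood at 1.40 (adjusted p 0.45), while a dim second probe set of it rose by 0.98 (adjusted p 0.0333). Itgam, encoding CD11b, stood at -0.24 with every array under 4.51. Without either spleen array 5 macrophage genes rose rather than 9, and 6 rose without infiltrate array 1. In the serial-code fit 3 rose. The adjusted p of Cd68, Fcgr1 and Ccr2 reached 0.25, 0.14 and 0.298 with 1 array left out, and that of Fcgr2b 0.0576. The list's median stayed between 0.86 and 1.45 with any 1 of the 5 arrays left out.

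**Figure D2:**
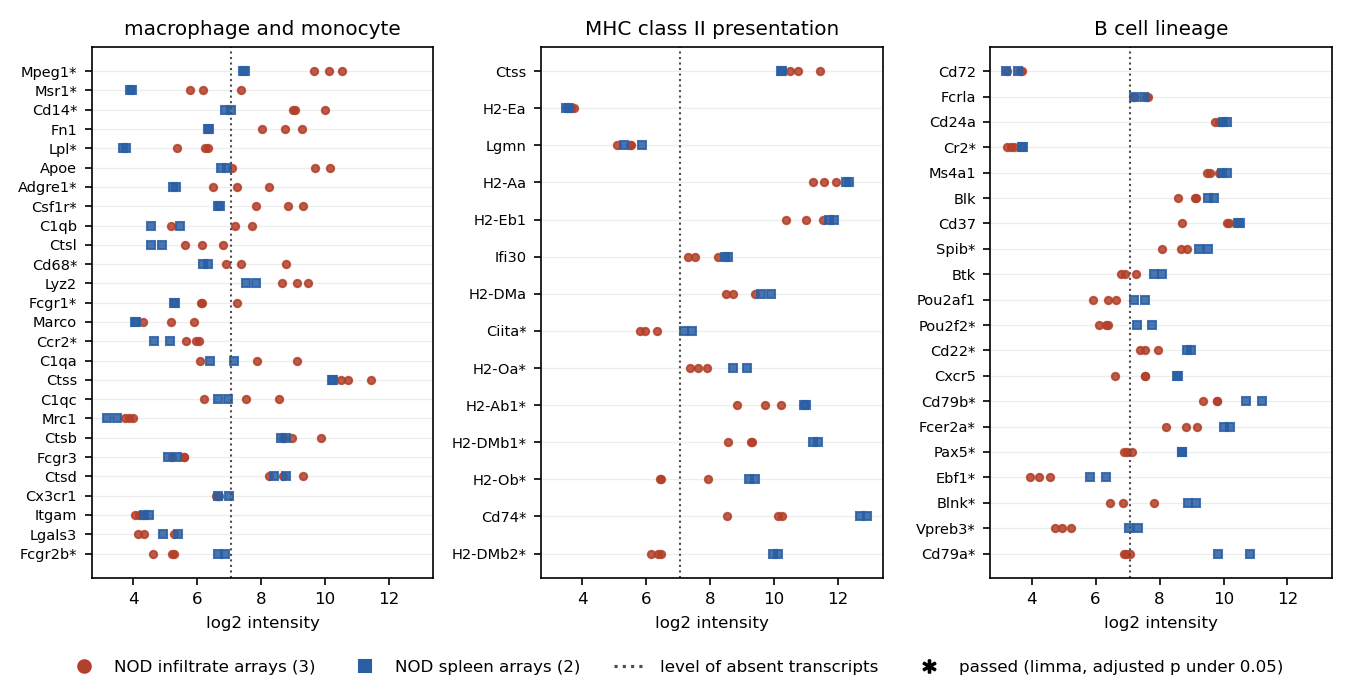
Log2 intensity of each member of 3 gene lists on the 3 infiltrate arrays (circles) and the 2 spleen arrays (squares), ordered by the difference of the group means. Asterisks mark genes that passed, 10 of 26 for macrophages and monocytes, 7 of 14 for MHC class II presentation and 11 of 20 for B cells, and the dotted line is the level of absent transcripts, 7.06.

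Genes of the inflammatory mediators were among the largest rises of all. Il1rn, which encodes the secreted antagonist of the interleukin-1 receptor, showed the largest rise, measuring 7.13, 8.03 and 8.21 in the infiltrate and 3.65 and 3.86 in the spleen. The groups were far apart, with a difference of 4.04 (SE 0.38, adjusted p 1.73e-06), and since the spleen lay under the level of absent transcripts the fold is at least 1.66. Il1b, the agonist itself, measured 7.06, 7.08 and 7.87 against 5.29 and 5.33 and rose by 2.02 (SE 0.37, adjusted p 0.0018), at least 1.21-fold, but did not pass in the serial-code fit (adjusted p 0.0782). Saa3, the serum amyloid A form made by macrophages and other cells outside the liver, measured 9.27, 7.72 and 7.004 against 4.22 and 4.36. It rose by 3.71 (SE 0.62, adjusted p 0.00084), at least 1.92-fold, with infiltrate array 1 the highest. Of 21 inflammatory cytokine genes 4 rose and 3 fell, where 3.99% of all genes rose and 4.68% fell. The fourth to rise was Il1a (0.45, with every array under 4.02). The genes that fell were Tgfb1 (-1.95), encoding the regulatory cytokine TGF-beta, Ltb (-1.49), the lymphotoxin subunit needed for lymphoid architecture, and Il16 (-0.995), a chemoattractant of CD4+ cells. Without either spleen array only Tgfb1 passed among the falls. The median of the list was 0.15. Tnf measured 6.68 to 7.13 in the infiltrate and 6.51 to 6.98 in the spleen and did not pass (adjusted p 0.679).

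Of 24 chemokine ligand genes 6 rose and 1 fell, where 3.99% of all genes rose and 4.68% fell, and the median difference was 0.25. Cxcl9, an interferon-gamma-induced ligand of CXCR3 that recruits activated T cells, measured 6.66, 7.27 and 6.34 in the infiltrate and 3.68 and 3.88 in the spleen. It rose by 2.98 (SE 0.28, adjusted p 1.3e-06) and, of the 15 alternative settings tried, passed under each that gave it a value. Both group means lay under the level of absent transcripts, so no fold is given. Cxcl10, induced by interferons and a ligand of the same receptor, lay at 4.11 to 4.45 against 3.26 and 3.404 and rose by 0.94 (adjusted p 0.0416), but lost the call under 10 of the 14 alternatives that gave it a value, among them leaving out any 1 of the 5 arrays (adjusted p 0.0617 to 0.242). Ccl9 rose by 2.31 (adjusted p 0.0257), at least 1.70-fold, and Ccl6 by 2.01 (adjusted p 0.0319), at least 1.82-fold. Both encode chemokines made by myeloid cells, and both were highest on infiltrate array 1, at 9.03 and 8.85. Neither passed without that array (adjusted p 0.1 and 0.122) or without either spleen array (up to 0.19 and 0.259). Cxcl2, which attracts neutrophils, rose by 1.21, and Cxcl13, the ligand that draws B cells to follicles, by 0.89. Ccl25 fell by 0.59, and Ccl5, a product of cytotoxic lymphocytes, stood at -0.22 (adjusted p 0.912). Without either spleen array 2 ligand genes rose, without infiltrate array 1 the count was 3, and in the serial-code fit it was 1. Among 19 chemokine receptor genes 3 rose and 3 fell, beside the same 3.99% and 4.68% of all genes. Ccr2, Ccr1 (0.97) and the atypical receptor Ccrl2 (0.80) rose. Cxcr4, the receptor for the stromal retention signal CXCL12, fell from 6.50 and 7.48 in the spleen to 4.34, 4.49 and 5.19 in the infiltrate, by 2.32 (SE 0.41, adjusted p 0.00132). Ackr2, a decoy receptor, fell by 0.59, but did not pass without infiltrate array 1, 2 or 3 (adjusted p 0.0985, 0.0948 and 0.0591). Ccr1 lost its call without infiltrate array 1 or 2, and Ccrl2 without infiltrate array 3. Without spleen array 2 the difference of Cxcr4 was -1.82. Ccr7 is given with the T cell genes.

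The other large rises lay outside those groups. App, which encodes the amyloid precursor protein, measured 10.75, 10.14 and 9.79 in the infiltrate and 6.36 and 6.35 in the spleen. It rose by 3.87 (SE 0.22, adjusted p 2.87e-09), at least 9.0-fold, and no array of one group came within 3 log2 units of the other. Cd93, a surface glycoprotein of early haematopoietic, myeloid and endothelial cells, measured 8.66, 7.13 and 9.15 against 5.04 and 5.33 and rose by 3.13 (SE 0.45, adjusted p 0.000188), at least 2.39-fold. Pla2g7 (2.88), the enzyme that inactivates platelet-activating factor, Lst1 (2.57), a leukocyte-specific transcript of the MHC region, and Gatm (2.48), the first enzyme of creatine synthesis, also rose. So did the phosphatase gene Ptpro (2.46), Tnfrsf1b (2.30), a receptor of TNF, and Anxa1 (2.30), a phospholipid-binding mediator of glucocorticoid action. Bach1 (2.24), a haem-sensing repressor, rose as well. Slfn4, of the Schlafen family, rose by 2.79 but with an adjusted p of 0.0492, and lost the call under 12 of the 15 alternatives. Nbr1 (2.43), an autophagy receptor, Slc12a2 (2.38), an ion cotransporter, Cpsf2 (2.35), of the machinery that cleaves and polyadenylates mRNA, Cbfb (2.32), the partner of the Runx factors, and Capzb (2.19), an actin-capping subunit, complete the 20 largest rises. With 1 array left out Lst1, Nbr1, Cbfb, Anxa1 and Capzb lost their calls, with adjusted p up to 0.076, 0.0711, 0.205, 0.09 and 0.135. The other probe sets of Capzb stood at -0.85 and 0.05, and further probe sets of Nbr1 and Cbfb at 0.42 and 0.80, none passing.

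**Figure D3:**
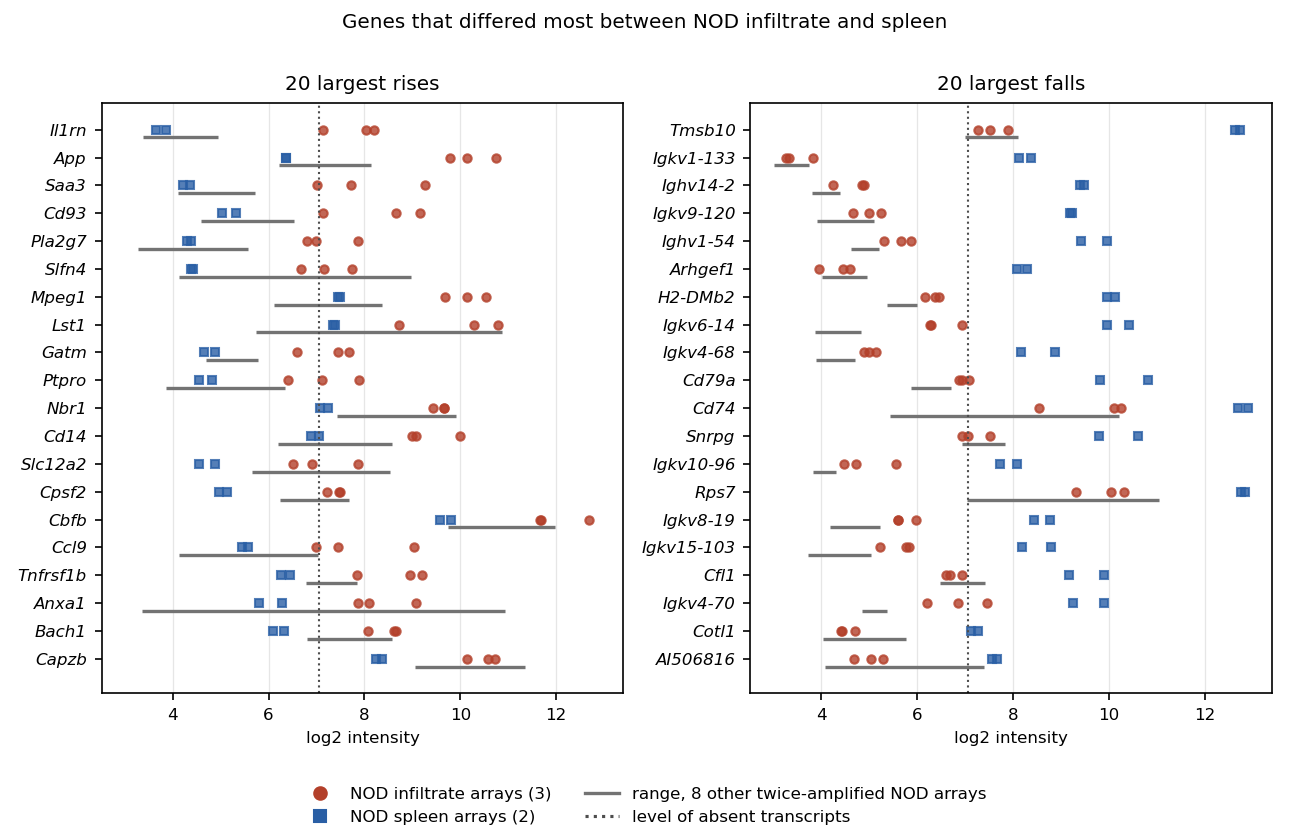
Log2 intensity of the 20 genes with the largest rises and the 20 with the largest falls in the NOD infiltrate (circles, 3 arrays) against the NOD spleen (squares, 2 arrays). The grey bar under each gene is the range over the 8 other NOD arrays amplified in 2 rounds and the dotted line the level of absent transcripts, 7.06. For Tmsb10 the grey bar, 7.004 to 8.10, spans the infiltrate arrays, and for Il1rn and App it lies below them.

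The arrays of the other NOD populations amplified in 2 rounds give values beside these. They share the infiltrate arrays with the comparison to spleen, so the 2 sets of differences are not independent. They are also T cells and NK cells, so cell type differs too, and they differ among themselves. Csf1r averaged 6.27 in pancreatic T cells, 5.64 in lymph node T cells and 8.49 in NK cells, beside 8.68 in the infiltrate. Mpeg1 averaged 6.83, 6.37 and 8.27 in that order, beside 10.12. Over all genes 381 passed (4.62%): 3.76% were higher in the infiltrate than in the mean of those 3 populations and 0.861% lower. Il1rn was higher than that mean by 3.73, App by 3.17, Saa3 by 3.47, Cd93 by 3.12, Mpeg1 by 2.96 and Cd14 by 2.22, each at an adjusted p under 0.05. Of the 26 macrophage genes 12 were higher and none lower, and the median was 1.35. The values were smaller for Slc12a2 (0.33, adjusted p 0.61), Cpsf2 (0.40, adjusted p 0.511), Capzb (0.45, adjusted p 0.681), Cbfb (0.83, adjusted p 0.41) and Nbr1 (0.94, adjusted p 0.227), none of which passed there.

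Genes of antigen presentation by MHC class II fell. MHC class II molecules carry peptides to CD4+ T cells, the invariant chain Cd74 guards their groove, and H2-DM exchanges its remnant for peptide while H2-O restrains H2-DM in B cells. Of 14 genes on the list 7 fell, where 4.68% of all genes did so, and none rose, with a median difference of -1.07. The summed intensity of the list was 10833, 12723 and 8659 in the infiltrate and 24639 and 25437 in the spleen. The promoters of 3 genes that fell and of H2-Eb1, which did not pass, are shown because they hold the letters of the X2 and Y boxes of the module through which the coactivator CIITA acts. Each window is the 150 bases before the start of the gene on the plus strand of mouse chromosome 17 (RefSeq, GRCm38.p6), at chr17:34145099-34145248, chr17:34153041-34153190, chr17:34238755-34238904 and chr17:34305717-34305866 in the order given. Capitals mark the first match, ATGATGC, and the second, TGATTGG.
H2-DMb2: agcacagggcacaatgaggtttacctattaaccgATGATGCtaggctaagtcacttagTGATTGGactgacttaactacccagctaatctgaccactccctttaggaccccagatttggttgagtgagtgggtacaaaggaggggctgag
H2-DMb1: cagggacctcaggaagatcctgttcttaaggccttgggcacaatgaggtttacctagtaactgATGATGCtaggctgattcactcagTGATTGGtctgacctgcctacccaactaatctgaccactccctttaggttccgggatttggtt
H2-Ob: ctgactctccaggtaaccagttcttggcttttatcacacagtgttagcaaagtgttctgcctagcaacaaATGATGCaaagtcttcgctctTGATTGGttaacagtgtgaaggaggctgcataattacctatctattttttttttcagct
H2-Eb1: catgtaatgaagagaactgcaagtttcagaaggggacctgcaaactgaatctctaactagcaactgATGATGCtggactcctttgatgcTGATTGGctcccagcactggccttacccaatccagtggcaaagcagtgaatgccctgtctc
The bases between the matches number 17 in H2-DMb2 and H2-DMb1, 14 in H2-Ob and 16 in H2-Eb1. Searched on both strands, ATGATGC occurred in such a window of 1.42% of 27025 genes, TGATTGG in 6.7% and both in 0.0999%. Of the 10 list genes with a window, 4 held ATGATGC, 6 held TGATTGG (H2-Aa, H2-Oa and the 4 shown) and 4 held both. A match is a description of these letters and no sign of binding.

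H2-DMb2, the first promoter shown, encodes a beta chain of H2-DM and had the largest fall of the list. It measured 6.16, 6.45 and 6.37 in the infiltrate and 10.14 and 9.96 in the spleen, without overlap, a difference of -3.72 (SE 0.19, adjusted p 6.6e-10) and at least 7.94-fold lower. H2-DMb1, the neighbouring beta chain gene, measured 9.29, 9.29 and 8.57 against 11.36 and 11.22 and fell by 2.24 (SE 0.27, adjusted p 2.84e-05), 4.72-fold. Cd74 measured 10.11, 10.25 and 8.54 against 12.69 and 12.91. It fell by 3.17 (SE 0.56, adjusted p 0.00137), 8.97-fold, with infiltrate array 3 the lowest. H2-Ob, a chain of H2-O, fell by 2.37 (adjusted p 0.000151), at least 4.76-fold, and its partner H2-Oa by 1.30 (adjusted p 0.025), 2.47-fold. H2-Ab1, the beta chain of I-A, fell by 1.37 (adjusted p 0.0215), 2.59-fold, and Ciita by 1.27 (adjusted p 0.000281), at least 1.18-fold.

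The alpha chain of the same molecule did not pass: H2-Aa measured 11.57, 11.94 and 11.22 in the infiltrate and 12.24 and 12.35 in the spleen, a difference of -0.71 (SE 0.36, adjusted p 0.257). H2-Eb1 stood at -0.82 (adjusted p 0.231), H2-DMa, the alpha chain of H2-DM, at -0.86 (adjusted p 0.131), and Ifi30, the lysosomal thiol reductase, also missed the threshold at -0.82. The proteases Ctss and Lgmn did not pass either, with Ctss at 0.66, and H2-Ea lay far under the level of absent transcripts on all 5 arrays. With any 1 of the 5 arrays left out, 5 to 7 genes fell: H2-Ab1 and H2-Oa lost their calls without either spleen array or infiltrate array 3, at adjusted p up to 0.176 and 0.289, and H2-Oa also without infiltrate array 1 (0.0593). Against the mean of the T cell and NK cell populations amplified in 2 rounds the same list was higher in the infiltrate. There 9 of 14 genes passed, where 3.76% of all genes were higher, with a median of 2.01. H2-Aa was higher than that mean by 4.87, H2-Ab1 by 3.26, H2-DMb1 by 2.5 and Cd74 by 2.20, while H2-DMb2 was higher by 0.59 (adjusted p 0.021). The populations in that mean differed widely. Cd74 averaged 6.34 in pancreatic T cells, 5.82 in lymph node T cells and 10.14 in NK cells, above the infiltrate mean of 9.63. H2-Aa averaged 5.53, 5.16 and 9.44 in the same order, below the infiltrate mean of 11.58.

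B cell genes fell as a list too: 11 of 20 fell, where 4.68% of all genes did so, and none rose. For 18 of the 20 all 3 infiltrate arrays lay below both spleen arrays, where 20.6% of all genes did so. The median difference was -1.16, and the summed intensity was 6266, 6784 and 5084 in the infiltrate and 12454 and 12111 in the spleen. Cd79a, the signalling chain of the B cell receptor, measured 6.94, 7.09 and 6.88 against 9.82 and 10.82. It fell by 3.35 (SE 0.27, adjusted p 2.42e-07), at least 9.60-fold, whereas its partner Cd79b fell by 1.32 (adjusted p 0.0137), 2.49-fold. Vpreb3 (-2.23), of the surrogate light chain family, and the adaptor gene Blnk (-1.96) fell, as did the lineage factors Ebf1 (-1.82), Pax5 (-1.70), Pou2f2 (-1.26) and Spib (-0.85). The IgE receptor gene Fcer2a (-1.36), the inhibitory lectin Cd22 (-1.31) and the complement receptor Cr2 (-0.37, with every array under 3.74) also fell. Ms4a1, which encodes CD20, measured 9.49, 9.58 and 9.86 in the infiltrate and 9.96 and 10.10 in the spleen, and did not pass on that probe set (-0.38, adjusted p 0.531), while its other probe set, at means of 9.66 and 10.995, fell by 1.34 (adjusted p 0.00906). Blk did not pass on its brighter probe set (-0.68) and fell on the other (-1.69, adjusted p 0.00626), and Btk stood at -0.95 on the brighter and rose by 0.97 on the other, at means under 3.88. Pou2af1, Cd37, Cd24a, Cxcr5, Fcrla and Cd72 did not pass. Among the genes that fell, Pou2f2 lost its call without infiltrate array 1, 2 or 3. So did Cr2 without infiltrate array 1 or 2, and Spib and Cd79b without infiltrate array 3. Without spleen array 1 the count of falling B cell genes was 7, and in the serial-code fit it was 6. Against the mean of the T cell and NK cell populations 11 of the 20 were higher in the infiltrate, where 3.76% of all genes were, with a median of 1.43. Those populations differed: Ms4a1 averaged 6.45 in T cells of either site and 9.29 in NK cells, beside 9.64 in the infiltrate. Blk averaged 4.24 in pancreatic T cells, 3.98 in lymph node T cells and 8.105 in NK cells, beside 8.94. Blnk averaged 5.02, 5.10 and 5.57 in that order, beside 7.05.

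Immunoglobulin genes made up 10 of the 20 largest falls. They were grouped, by gene symbol, after their values were seen, so the counts are a description. Of 28 such genes measured, 19 fell, where 4.68% of all genes did so, and none rose. The differences ran from -4.78 to 0.10 with a median of -1.70. Igkv1-133, a kappa variable gene, measured 3.27, 3.82 and 3.32 in the infiltrate and 8.13 and 8.38 in the spleen, and Ighv14-2, a heavy chain variable gene, 4.86, 4.88 and 4.23 against 9.47 and 9.40. Both fell by 4.78, at least 2.29-fold and 5.20-fold, at adjusted p of 1.1e-07 and 1.48e-09. Ighm, the constant region of IgM, measured 11.22, 11.08 and 10.12 against 12.32 and 12.42 and fell by 1.57 (SE 0.40, adjusted p 0.0187), 2.96-fold, but did not pass without infiltrate array 3 (adjusted p 0.0794) or without spleen array 1 or 2 (0.131 and 0.137). Variable genes of 1 family are close in sequence, so their probe sets may share signal, and the probe sets of Igkv9-120 disagreed: 1 fell by 4.24 and the others stood at 0.07 and 0.16. Igkv6-14 fell by 3.70 on 1 probe set and stood at -0.03 on the other. Of the 15 other probe sets of Ighm, 5 had the opposite sign. Jchain, which joins the units of secreted IgM and IgA, fell by 2.07 (adjusted p 0.0426), and Prdm1, the plasma cell factor also used by T cells, rose by 0.77 at levels under 5.01. Jchain did not pass without infiltrate array 1 or 3 (adjusted p 0.159 and 0.117). Prdm1 did not pass without infiltrate array 1, 2 or 3 (adjusted p 0.0799, 0.0845 and 0.0594).

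Of 15 T cell lineage genes 1 fell and none rose at 1 probe set per gene, where 4.68% of all genes fell. A further probe set of Cd6 also fell (-2.002, adjusted p 0.0213). The probe set that represents Cd6 did not pass (-0.61, adjusted p 0.33). Below 0 lay 14 of the 15, where 4506 of 8251 genes lay above 0, and the median was -0.66. All 3 infiltrate arrays lay below both spleen arrays for 11 of the 15, where 20.6% of all genes did so. Cd3e measured 6.98, 7.24 and 7.83 in the infiltrate and 7.94 and 7.95 in the spleen (-0.60, adjusted p 0.38), Cd4 6.72 to 6.94 against 7.33 and 7.64 (-0.62, adjusted p 0.145) and Cd8a 6.18 to 7.13 against 7.26 and 7.96 (-0.97, adjusted p 0.093). Cd3d passed (-1.95, adjusted p 0.0369), but its other probe set stood at 0.55, and its adjusted p was 0.089 to 0.342 without infiltrate array 1 or 3 or either spleen array. Genes of naive and recirculating T cells fell in 3 of 8 cases. Ccr7, which guides naive T cells into lymphoid tissue, measured 5.42, 5.75 and 5.05 against 7.38 and 6.98 and fell by 1.78 (SE 0.32, adjusted p 0.00169). Lef1 (-1.06) and Klf2 (-0.73), transcription factors of the naive state, fell as well. Without either spleen array 1 of the 3 passed. Among 19 genes of activation and helper cytokines only Il10 passed (0.46, adjusted p 0.0465, at levels under 4.96), and it lost the call under 10 of the 14 alternatives that gave it a value, among them leaving out any 1 of the 5 arrays (adjusted p 0.0657 to 0.315). Ifng measured 4.28, 4.17 and 5.74 against 3.45 and 3.22, without overlap but short of the threshold (1.39, adjusted p 0.0641), and Il4 (0.46), Cd44 (0.45) and Ctla4 (0.58) did not pass. Entpd1, encoding the ectoenzyme CD39, rose by 0.87, but did not pass without infiltrate array 1 (adjusted p 0.0728).

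Gzmb, the serine protease of cytotoxic granules, measured 7.57, 7.42 and 8.82 in the infiltrate and 5.86 and 5.75 in the spleen. It rose by 2.13 (SE 0.42, adjusted p 0.00341), at least 1.84-fold, under each of the alternatives. Gzma and Prf1 did not follow: Gzma measured 6.99, 6.93 and 8.30 against 7.93 and 6.90 (adjusted p 0.999), and Prf1 5.47 to 5.91 against 5.80 and 5.82 (adjusted p 0.811). Of 19 NK receptor and lineage genes Klrg1 (1.58) and Fcer1g (1.02) rose, where 3.99% of all genes did so, and the median was 0.19. Fcer1g lost its call without infiltrate array 1. Klrd1, Klrk1 and Klra3 did not pass, at -0.02, 0.39 and 0.26. Infiltrate array 3 was the highest of the 3 for Gzmb, Gzma, Ifng and Klrg1 and the lowest for Apoe and C1qa.

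Genes of interferon responses moved in both directions, with few calls beside the 3.99% of all genes that rose and 4.68% that fell. Of 18 interferon-gamma response genes Cxcl9 and Cxcl10 rose and Ciita and Icam1 (-1.05), an adhesion ligand, fell, with a median of 0.22. Of 15 type I interferon response genes Ifih1 (1.99), a sensor of viral RNA, and Ifi202b (1.53) rose. Among 13 genes of MHC class I loading, H2-D1 (-1.33), H2-K1 (-1.20) and Tapbp (-0.92) fell, the first 2 being the classical class I heavy chains, and without either spleen array none passed. A further Tapbp probe set stood at 0.35 and did not pass. The adhesion genes Itgb7 (-1.37), a gut-homing integrin chain, and Itgal (-0.49) fell and Selp (1.03), encoding P-selectin, rose, among 21. Itgal lost its call without infiltrate array 1, 2 or 3, Itgb7 without infiltrate array 3 and Selp without infiltrate array 1.

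**Figure D4:**
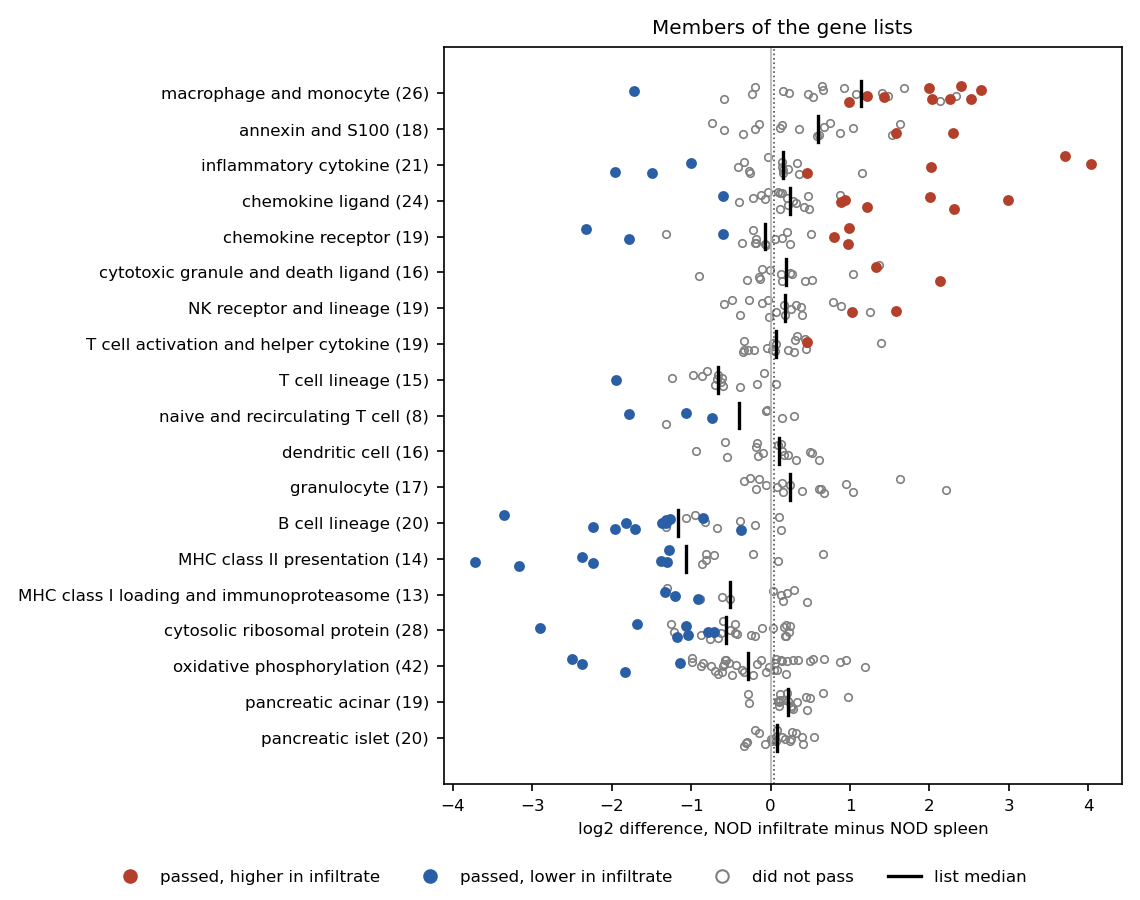
Log2 difference between NOD infiltrate and NOD spleen for each member of 19 gene lists, with the number of genes measured in brackets. Filled points passed the limma test, open points did not, and the vertical bar is the list median: 1.14 for macrophages and monocytes, -1.16 for B cells and -1.07 for MHC class II presentation, beside 0.04 over all genes (dotted line).

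At 1 probe set per gene, no gene passed in several marker lists, where 8.67% of all genes passed. Among cells that the CD45+ sort would not be expected to hold, these were the 19 acinar, 20 islet, 18 liver, 24 matrix and 13 endothelial genes measured, with the 17 erythroid and 7 platelet genes. Among leukocytes within the sort they were the 17 granulocyte and 16 dendritic cell genes, of which 5 and 7 lay above the level of absent transcripts in either group. Further probe sets, not those that represent their genes, rose for Csf3r (1.16, adjusted p 0.00374) and Timp1 (0.77, adjusted p 0.038). A further probe set of Cd83 fell (-1.57, adjusted p 3.99e-05). The means of these probe sets lay under that level. The summed intensity of the acinar genes was 1077 to 1302 in the infiltrate and 961 to 1055 in the spleen, that of the islet genes 635 to 716 and 616 to 700. Of the acinar genes 17 of 19 lay above 0, where 4506 of 8251 genes did so, with a median of 0.22 beside 0.04. The absence of calls thus does not show that acinar signal was equal. The digestive protease Prss2 lay at 4.98 to 5.16 against 4.08 and 4.16, without overlap (0.98, SE 1.04, adjusted p 0.656). Its SDs within the 2 groups were 0.10 and 0.05, the SE being pooled over all 10 groups. Cela1 lay at 6.67 to 6.82 against 6.41 and 6.60 (adjusted p 0.676), and Ins2, encoding insulin, at 7.59 to 8.09 against 7.54 and 7.79. Gcg, Alb, Mpo, Pf4, Itgae, Itgam and Itgax did not pass. Hba-a1, a globin of red cells, measured 13.69, 9.70 and 7.18 in the infiltrate and 10.92 and 10.02 in the spleen, which made the summed erythroid intensity 15112 on infiltrate array 1 and 1328 on array 3. S100a8, of neutrophils and monocytes, measured 8.64, 7.35 and 8.89 against 8.62 and 6.61. Ptprc, encoding the CD45 antigen of the sort, measured 8.02, 7.78 and 8.76 against 9.42 and 9.03 (-1.04, adjusted p 0.451). A second Ptprc probe set fell, from a mean of 8.40 in the spleen to 5.05 in the infiltrate (-3.35, adjusted p 9.67e-05), and the remaining one stood at -0.05 with both means under 3.14.

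Several of the largest falls lay outside immune lists. Tmsb10, which encodes the actin-binding peptide thymosin beta-10, measured 7.26, 7.90 and 7.51 in the infiltrate and 12.62 and 12.74 in the spleen. Its fall of 5.12 (SE 0.30, adjusted p 4.26e-09), 34.8-fold, was the largest among the 8251 genes at 1 probe set each. A second probe set of Ighv14-2, not the one that represents the gene, fell further, from a mean of 10.19 to 4.07 (-6.12, adjusted p 2.42e-07). On the 8 other NOD arrays amplified in 2 rounds Tmsb10 lay at 7.004 to 8.10, and the infiltrate differed from them by 0.08 (adjusted p 0.918). Arhgef1 measured 4.45, 4.59 and 3.96 against 8.08 and 8.30 and fell by 3.86, at least 2.19-fold, with -0.04 against those other populations. The actin regulators Cfl1 (-2.79) and Cotl1 (-2.68), the spliceosomal Snrpg (-3.02) and the ribosomal Rps7 (-2.90, 7.49-fold) fell as well, and stood at -0.12, -0.32, -0.26 and 0.51 against the other populations, none passing. For these genes the spleen arrays stood apart from every NOD array amplified in 2 rounds. The part of amplification in them was not tested, and tissue and amplification cannot be told apart in the comparison with spleen. AI506816 (-2.61) completes the list of the 20 largest falls with Igkv6-14, Igkv4-68, Igkv10-96, Igkv8-19, Igkv15-103, Igkv4-70 and Ighv1-54.

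The same comparison on the B6g7 arrays shared no array with the NOD one, but had the same difference in amplification. By their serial codes all 4 spleen arrays fell in 1 run, and infiltrate arrays of both backgrounds fell together in 2 runs, so the agreement in sign below is not an independent repeat. There 942 probe sets (7.58%) passed, or 621 genes (7.53%), 3.44% of all genes higher and 4.08% lower. Of the 329 genes that rose in NOD all 329 had the same sign in B6g7 and 178 (54.1%) passed. Of the 386 that fell all 386 had the same sign and 264 (68.4%) passed, and no gene passed in the opposite direction. The median difference of the genes that rose was 1.12 in NOD and 0.97 in B6g7, and of those that fell -1.07 and -0.93. Il1rn differed by 4.03, Tmsb10 by -5.17, H2-DMb2 by -3.63 and Cd79a by -3.81 in B6g7. Cd93 and Cd14 were smaller there, at 0.74 (adjusted p 0.396) and 0.91 (adjusted p 0.234), but the difference between the backgrounds did not pass for either (Cd93 2.39, SE 0.63; Cd14 1.48, SE 0.59; adjusted p 0.999 for both). Ifi202b, which rose in NOD, stood at 0.15 in B6g7, a difference of 1.37 (SE 0.25, adjusted p 0.0703). Tested directly, the difference between the backgrounds passed for 5 probe sets (0.0403%), and for 2 genes (0.0242%), Trgv1 and Ifi209.

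**Figure D5:**
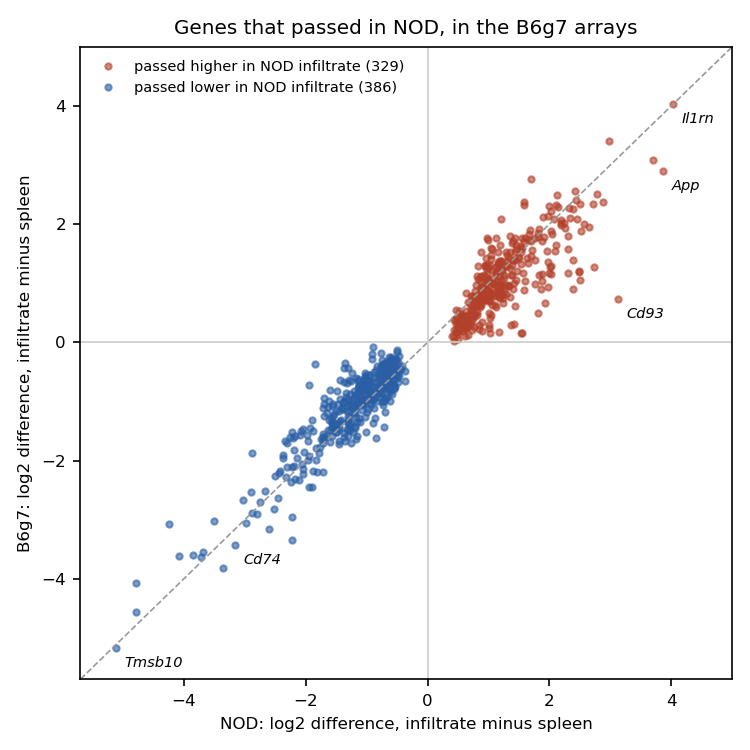
Log2 difference between infiltrate and spleen in NOD (horizontal axis) and in B6g7 (vertical axis) for the 329 genes that rose and the 386 that fell in NOD, with the line of equality dashed. All points lie in the lower left and upper right quadrants, with medians of 1.12 and 0.97 for the rises and -1.07 and -0.93 for the falls.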

How the data were processed

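The 5 arrays were those titled as NOD total pancreatic infiltrate or NOD splenic leukocytes. The authors' deposited series table gives linear intensity values for 12488 probe sets, from 5.7 to 13566. The submitters' processing notes name RMA for 11 of the 24 arrays, both NOD spleen arrays among them and no NOD infiltrate array, and for the other arrays no processing is named in those notes. The deposited intensity values were converted to log2 with no further normalization, and 66 control probe sets were left out. A probe set was named where GEO's platform annotation gives it 1 gene: 10833 of them did, 1193 had none and 396 several. Each of 8251 genes is represented by its probe set with the highest mean over 24 arrays.

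limma 3.58.1 (R 4.3.3) fitted 1 mean for each of 10 groups over all 24 arrays (14 residual degrees of freedom), with two-sided moderated tests and Benjamini-Hochberg adjustment over 12422 probe sets. Folds come from means of log2 values. The level of absent transcripts is the 90th percentile of 40 genes of unrelated tissues over the 5 arrays. A fold given as a bound sets the higher mean against that level, and none is given where both means lie at or under it. The procedure was checked on simulated data.

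Named genes are the 20 largest rises and falls that passed, with no overlap of arrays and the higher mean above that level, a panel of 40 genes (37 measured), up to 6 passing members a direction and 3 others of each of 34 lists, and genes whose difference between backgrounds passed. The members and lists were chosen with earlier results of these data known. Intensities carry no counts, so the number of arrays limits the precision. The numbers shared by infiltrate and spleen titles did not pair the arrays (correlation of deviations 0.064 and -0.189).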

Additional observations from a re-analysis of the deposited data

Results flagged for a closer look

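For 2 genes the difference between infiltrate and spleen was itself different between the NOD and B6g7 backgrounds (limma, adjusted p 0.0124 for each). Trgv1, a variable gene of the T cell receptor gamma chain, differed by 0.49 in NOD and by 3.57 in B6g7, so that the NOD minus B6g7 value was -3.08 (SE 0.44). Its B6g7 means were 9.80 in the infiltrate and 6.23 in the spleen. The NOD arrays gave 7.52, 7.50 and 7.31 in the infiltrate and 7.21 and 6.70 in the spleen. Ifi209, of the interferon-inducible cluster that also holds Ifi202b, differed by -0.04 in NOD and by -2.09 in B6g7, a NOD minus B6g7 value of 2.05 (SE 0.28). Its B6g7 means were 4.52 in the infiltrate and 6.61 in the spleen, and on the NOD arrays it lay between 4.40 and 4.79.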

How the results depend on the processing

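For NOD infiltrate versus NOD spleen, 15 alternatives were tried, and every probe set called in the analysis as reported kept its sign in each alternative that tested it. The count of 1133 calls (480 higher, 653 lower) became 732 (281 higher) with the replicate number as a block. It became 663 (293 higher, 370 lower) with 1 probe set per gene, 372 (83 higher, 289 lower) with serial code runs as a random block and 3027 (1621 higher, 1406 lower) with array weights. Without the 40% dimmest probe sets 311 were higher. Leaving out 1 array gave 351 to 879 calls, 103 to 342 of them higher and 248 to 537 lower, the lowest counts coming without a spleen array. The lone spleen array is then assumed to vary like the other groups. With fewer genes or arrays a lower count follows partly from the setting itself, and otherwise the cause was not tested. For B6g7 infiltrate versus B6g7 spleen the 942 calls became 613 with 1 probe set per gene, 370 with the serial code block and 4283 with array weights. For the difference of the infiltrate-spleen difference between backgrounds, 149 probe sets had an unadjusted p under 0.05, and the 5 calls became 1 without the dimmest probe sets, 9 with 16 added to each intensity, 2 with 1 probe set per gene, 13 with the serial code block and 18 with array weights. For NOD infiltrate versus other twice-amplified NOD populations the 546 calls became 205 with the serial code block and 1039 with array weights.

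Of 121 named or listed genes that passed, 31, 19 and 31 lost the call without infiltrate array 1, 2 or 3, and 61 and 56 without spleen array 1 or 2. Of the 40 largest rises and falls, 31 passed under every alternative that gave them a value (12 rises and 19 falls), and all 40 kept their sign there. Without a call in the analysis as reported, the following turned direction. Klrd1 became 0.05 with quantile normalization, 0.02 with the serial code block and -0.33 to 0.24 without 1 array. Gzma became 0.08, 0.02 and -0.52 to 0.51 in the same settings. Hba-a1 became 1.23 with the replicate block, 0.35 with array weights and -2.03 to 1.23 without 1 array. Alb became -0.14 with the replicate block, -0.07 with quantile normalization, -0.09 with array weights and -0.14 to 0.11 without 1 array. Itgae became -0.04 with the serial code block. With 1 array left out Tnf ran from -0.01 to 0.46, S100a8 from -0.32 to 1.68, Pf4 from -0.30 to 0.04, Ccl5 from -0.52 to 0.13 and Ifi209 from -0.14 to 0.07. Quantile normalization moved the median of the ribosomal list from -0.56 to -0.14 and that of MHC class I loading from -0.51 to 0.01.

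The comparison rests on 2 spleen arrays and 3 infiltrate arrays, and most low signals lie under the level of absent transcripts, where no fold is given. The infiltrate arrays were not named among those processed with RMA, and a difference in processing between the groups was not tested.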

Other observations

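Of 28 cytosolic ribosomal protein genes 7 fell, where 4.68% of all genes did so, and none rose, with a median difference of -0.56. Rpl10a, of the large subunit, measured 10.32, 10.27 and 9.69 against 11.78 and 11.76 and fell by 1.68 (SE 0.30, adjusted p 0.0013), and Rps4x, of the small subunit, fell by 1.18. With quantile normalization 2 of the 28 passed, without either spleen array 3, and without infiltrate array 1 or 3 the count was 4. Of 42 oxidative phosphorylation genes 4 fell (2 without infiltrate array 1 or either spleen array): Atp5l (-2.50) and Atp5o (-1.14), subunits of ATP synthase, and Ndufa6 (-2.37) and Ndufb10 (-1.83), of complex I. Against the other NOD populations amplified in 2 rounds these 4 stood at 0.23, -0.08, -0.40 and -0.16, and Rpl10a at 0.14, none passing. Against spleen, Ndufb10 lost its call without infiltrate array 1, 2 or 3, and Atp5o without infiltrate array 1.

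Of 18 genes of glycolysis and hypoxia Hk1, the hexokinase of most tissues, measured 7.79, 8.37 and 8.15 in the infiltrate and 10.54 and 10.27 in the spleen and fell by 2.30 (SE 0.35, adjusted p 0.000313), 4.93-fold. Pkm, encoding pyruvate kinase, fell by 1.45, while Hif1a, the oxygen-regulated transcription factor, measured 10.03, 10.59 and 10.90 against 8.95 and 8.96 and rose by 1.55 (adjusted p 0.041), 2.93-fold. Pkm did not pass without infiltrate array 1 or 3 (adjusted p 0.0701 and 0.0912), nor Hif1a without infiltrate array 2 or 3 (0.0895 and 0.132). Of 25 immediate early and stress genes Klf6 rose by 1.46 (adjusted p 0.00503), and Myc (-1.30), Junb (-1.03) and Zfp36 (-1.0) fell. Zfp36 lost its call without infiltrate array 1, 2 or 3, and Junb without infiltrate array 3. Of 32 cell cycle genes Fen1 alone passed at 1 probe set per gene (-1.02, at levels under 5.24). Further probe sets rose for E2f1 (0.91, adjusted p 0.0117), Plk1 (0.82, adjusted p 0.047) and Atf3 (1.04, adjusted p 0.00965). Their means lay under the level of absent transcripts. A further probe set of Junb fell (-1.76, adjusted p 0.000698). Over all genes 3.99% rose and 4.68% fell, to be set beside the count of each list here. Among the 9 red pulp and marginal zone macrophage genes Slc11a1, the metal transporter of phagosomes, rose by 1.76 (adjusted p 0.0053), and among 11 mast cell and basophil genes Mcpt8 rose by 0.71. Mcpt8 lost its call without infiltrate array 1 or 2. Among the 18 annexin and S100 genes Anxa1 and Anxa4 (1.58) rose, and the median was 0.60. In the regulatory and inhibitory list of 11 genes Entpd1 rose and Tgfb1 fell. In the cytotoxic list of 16 genes Gzmb and Lamp1 (1.32, adjusted p 0.0498) rose. Lamp1 did not pass without infiltrate array 1 or 2 (adjusted p 0.178 and 0.077).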
